A study of Mus musculus with 24 samples.

Results

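The circadian clock of mammalian cells is a feedback loop of transcription factors, and 10 genes of that loop are described here in the thoracic aorta of mice fed a cyclooxygenase inhibitor. They are the activators Arntl (also called Bmal1) and Npas2, the repressors Per1, Per2, Per3, Cry1 and Cry2, the nuclear receptors Nr1d1 and Nr1d2 (REV-ERBα and REV-ERBβ), and Dbp, a transcription factor at the clock's output. They were taken by name from the 25941 genes of the deposited table, and each was found there under 1 Ensembl identifier. PolyA RNA was sequenced from 24 libraries, 8 in each of 3 groups of adult male C57BL/6 wildtype mice aged 10 to 12 weeks. For 3 weeks the first group ate chow with celecoxib at 100 mg/kg/day, the second chow with rofecoxib at 50 mg/kg/day, and the controls plain chow. The mice had free access to food under equal light and dark, and every aorta was taken 11 hours after lights on (ZT 11), so the data hold a single phase and no rhythm can be read from them. Celecoxib and rofecoxib inhibit mainly the inducible cyclooxygenase, which Ptgs2 encodes. Because the doses differed, drug and dose cannot be told apart.

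In the loop, ARNTL pairs with CLOCK or NPAS2 and binds E-boxes to switch on the Per and Cry genes, whose proteins return to the nucleus and repress that pair. A second arm runs through the nuclear receptors: NR1D1 and NR1D2 repress Arntl at ROR elements, where the ROR receptors activate it. DBP, with its relatives TEF and HLF, carries the rhythm to output genes through D-boxes, which NFIL3 represses. Per1 also answers directly to CREB signalling and to glucocorticoids, and both are routes by which clocks of peripheral tissues are reset. Late in the light phase, Dbp and the Per genes are known to be high and Arntl near its trough in mouse peripheral tissues, the aorta included.

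Library totals ran from 21652432 to 21687906 counts, a range of 0.164%. The labelled tissue was checked against smooth muscle genes, which gave 306990 to 486923 counts of Acta2 and 174398 to 272395 of Myh11 in every library. Control 6 stood apart from the other controls in the adipocyte genes that come with perivascular fat, and its values are given beside the results they touch. Libraries also differed in how their levels followed transcript GC content, which is likewise given where it moved with a clock gene. In whole tissue, fewer cells of a type and less RNA per cell cannot be told apart. The submitters describe the 8 libraries as biological replicates, but the labels tie none of them to a named animal, so the p-values measure the spread between these libraries.

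Levels are in CPM, counts relative to the TMM-scaled depth of a library, and a value after ± is the SD of 8 libraries. A log2 fold change is given ± SE, and a gene is called where the adjusted p of edgeR's quasi-likelihood test, with the Benjamini-Hochberg method applied to 14451 genes, is under 0.05. All 10 clock genes passed the filter on low counts.

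Compared per kilobase of exon, the clock genes of control aortas spanned a wide range. Dbp was at 82.7 ± 12.2 CPM per kilobase, Per2 at 74.5 ± 8.51 and Nr1d1 at 69.4 ± 14.8 (SD, n = 8), and these neighbours lay within each other's spread. Nr1d2 at 49.7 ± 7.21 and Per1 at 43.2 ± 10.7 CPM per kilobase did not differ beyond their spread either. Per3 stood at 21.3 ± 1.71, Cry2 at 14.9 ± 2.27 and Cry1 at 8.68 ± 1.21 CPM per kilobase, each apart from the next. The 2 activators were far lower, Npas2 at 1.10 ± 0.20 and Arntl at 0.189 ± 0.12 CPM per kilobase. Arntl was read from only 12 to 78 counts a library and Npas2 from 75 to 152, against 385 or more for each other clock gene. The coefficient of variation within groups, pooled over the 3 groups, was largest for Arntl, at 48.4%, and smallest for Per3, at 9.10%. The SD of Arntl was 0.90 CPM in controls, which include control 6 at 3.55 CPM. It was 0.45 CPM with celecoxib and 0.41 CPM with rofecoxib.

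**Figure D1:**
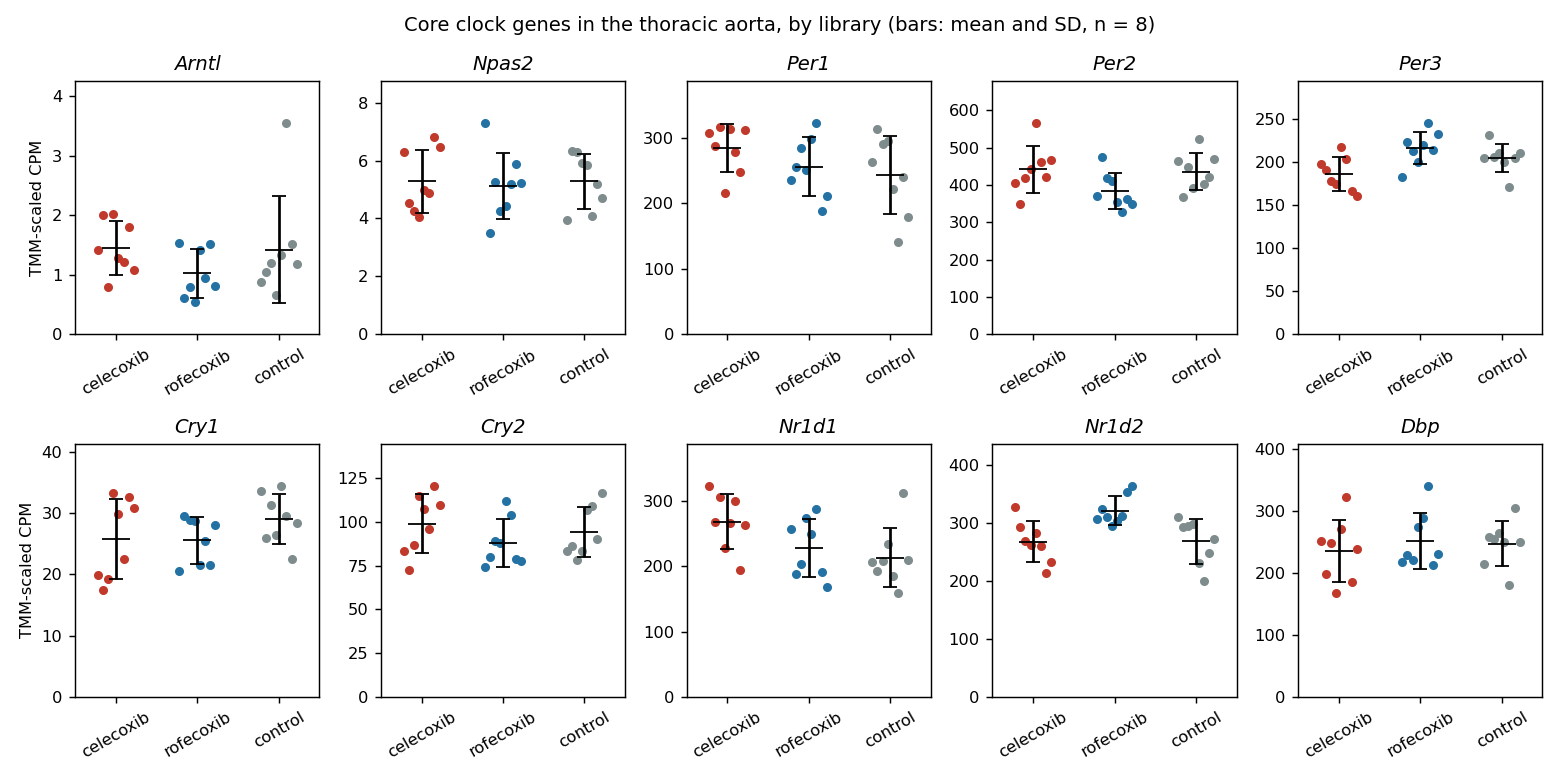
TMM-scaled CPM of the 10 clock genes in every library, with the mean and SD of each group of 8 as bars and every vertical axis starting at 0. Control 6 is the single Arntl point at 3.55 CPM, and the rofecoxib libraries of Nr1d2 all lie at or above 296 CPM.

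Promoter windows were searched for the elements through which the loop is known to close, and the matches are printed to show which part of the loop each belongs to. RefSeq start sites on GRCm38.p6 were searched from 250 bases before to 50 after the start on both strands, which gave 11 windows for 9 of the 10 genes. Windows of 4 of these 9, Arntl, Per1, Per3 and Cry1, held at least 1 match. The E-box CACGTG was found in windows of Per1 and Cry1 and in 7.15% of 32851 windows of all genes. The D-box TTANGTAA was found in the Per3 window and in 2.32% of all windows, and the ROR element TAGGTNA in Arntl windows and in 8.29%. The CRE half-site TGACGT, the letters to which CREB binds, was found in a second Per1 window and in 7.51% of all windows. The letters of these 4 motifs do not contain one another. Matches are in capitals and each line is written 5′ to 3′ on the gene's strand.
Arntl, chr7:113207494-113207514, plus strand: tggtcggaaagTAGGTTAgtg
Arntl, chr7:113207530-113207558, plus strand: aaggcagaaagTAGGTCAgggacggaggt
Per1, chr11:69098758-69098813, plus strand: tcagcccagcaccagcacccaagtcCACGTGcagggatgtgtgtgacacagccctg
Per1 second start site, chr11:69099995-69100050, plus strand: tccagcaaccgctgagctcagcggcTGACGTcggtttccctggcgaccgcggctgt
Per3, chr4:151044791-151044895, minus strand: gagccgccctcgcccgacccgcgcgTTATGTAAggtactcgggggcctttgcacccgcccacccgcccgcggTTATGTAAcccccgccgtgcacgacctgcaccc
Cry1, chr10:85185084-85185139, minus strand: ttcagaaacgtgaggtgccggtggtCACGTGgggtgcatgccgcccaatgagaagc
The first Per3 D-box begins 205 bases and the second 158 bases before the start site. The Cry1 E-box begins 60 bases and the Per1 E-box 166 bases before theirs. A match of letters is a description and does not show that a factor binds there.

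No clock gene was called against control with either drug. With celecoxib, 0 of the 10 clock genes were called against control, where 1.41% of all genes tested were called. With rofecoxib, 0 of 10 were called against control, where 5.3% of all genes were. At an unadjusted edgeR p under 0.05, each of these comparisons had 1 clock gene higher and 1 lower, beside 17.3% of all genes for celecoxib and 27.1% for rofecoxib. DESeq2 called 0 with celecoxib and 1, Nr1d2, with rofecoxib, where it called 477 and 1567 of all genes. The median log2 fold change of the 10 genes was 0.0079 with celecoxib and -0.0095 with rofecoxib, beside -0.0053 and -0.0002 for all genes.

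Between the drugs, Per3 and Nr1d2 were lower with celecoxib than with rofecoxib. These 2 of 10 calls stood beside 22.7% of all genes called in either direction and 11.2% called lower, so the share of clock genes called was near that of the background. The median log2 fold change of the 10 genes was 0.10, beside -0.0026 for all genes. At an unadjusted edgeR p under 0.05 the comparison added Per2, higher with celecoxib, beside 36% of all genes.

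**Figure D2:**
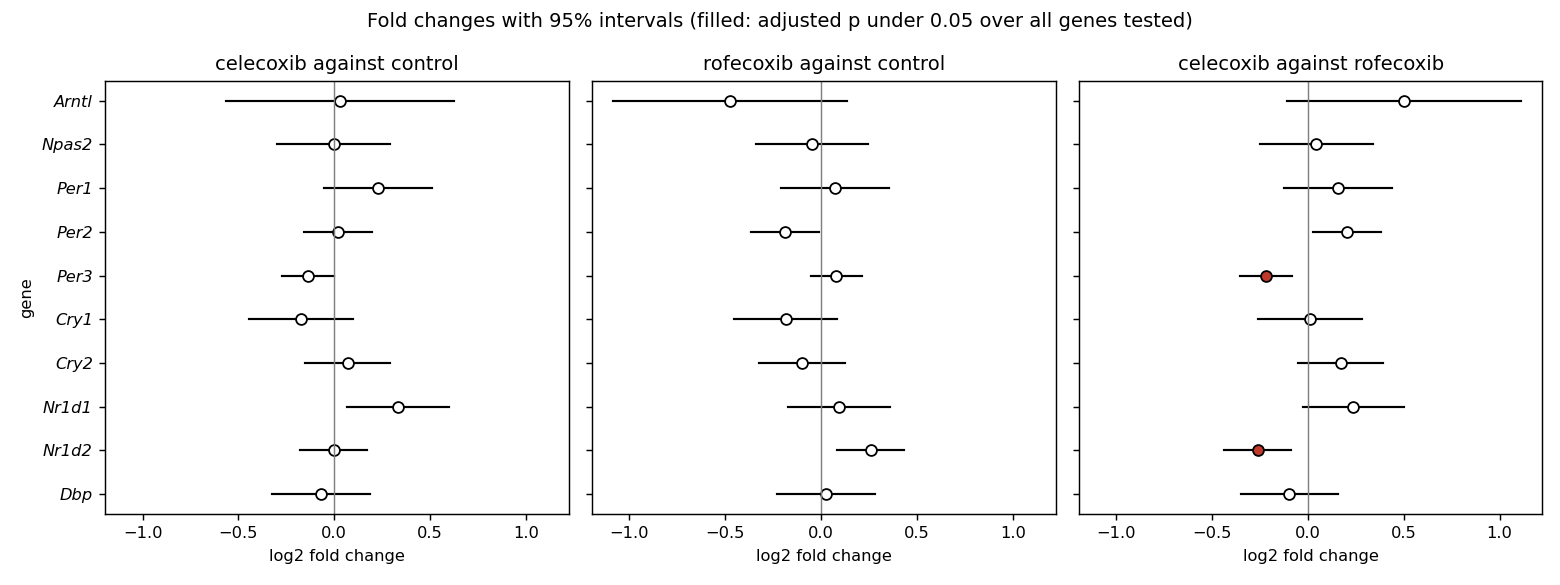
Log2 fold changes of the 10 clock genes in the 3 comparisons, with 95% intervals as bars and filled points where the edgeR adjusted p was under 0.05. Per3 and Nr1d2 are the only filled points, both left of 0 for celecoxib against rofecoxib, and the intervals of Arntl are the widest.

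Arntl, the activator that pairs with CLOCK or NPAS2 (ENSMUSG00000055116, mm9 chromosome 7 from 120350777 to 120457838), had a low level in every group. Its lowest, median and highest values were 0.794, 1.35 and 2.02 CPM with celecoxib, 0.547, 0.881 and 1.53 CPM with rofecoxib, and 0.659, 1.19 and 3.55 CPM in controls. The groups overlapped, and 7 of the 8 controls were at or under 1.52 CPM. The log2 fold change was 0.03 ± 0.29 for celecoxib against control (edgeR adjusted p = 0.967) and -0.47 ± 0.30 for rofecoxib against control (edgeR adjusted p = 0.305). With 1 library left out, the value for rofecoxib against control ran from -0.59 to -0.12. Control 6 was the control at 3.55 CPM. Between the drugs the log2 fold change was 0.50 ± 0.30 (edgeR adjusted p = 0.228), with a 95% interval of -0.11 to 1.11.

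Npas2, which takes the place of CLOCK as partner of ARNTL and is known from forebrain and vessels (ENSMUSG00000026077, mm9 chromosome 1 from 39250374 to 39420281), was at 5.28 ± 1.08 CPM for celecoxib, 5.12 ± 1.15 CPM for rofecoxib and 5.29 ± 0.95 CPM for control libraries (n = 8 each). Its range was 4.04 to 6.80 CPM with celecoxib, 3.49 to 7.29 CPM with rofecoxib and 3.94 to 6.33 CPM in controls, so the groups overlapped almost fully. No comparison was called, and between celecoxib and control the 95% interval of the log2 fold change ran from -0.30 to 0.29. Clock itself, the other partner of ARNTL, averaged 42.3 ± 4.90 CPM with celecoxib, 44.0 ± 7.65 with rofecoxib and 40.5 ± 2.61 in controls, and was not called either.

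Per1, the period gene that answers fastest to CREB signalling (ENSMUSG00000020893, mm9 chromosome 11 from 68908517 to 68923664), had its lowest, median and highest values at 215, 298 and 317 CPM with celecoxib, 189, 253 and 322 CPM with rofecoxib, and 141, 252 and 313 CPM in controls. The celecoxib libraries clustered toward the top of the control range, and 7 of 8 were above the control mean. Its log2 fold change was 0.23 ± 0.14 for celecoxib against control (edgeR adjusted p = 0.388), 0.07 ± 0.14 for rofecoxib against control (edgeR adjusted p = 0.758) and 0.16 ± 0.14 for celecoxib against rofecoxib (edgeR adjusted p = 0.437).

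Per2, the period gene whose protein limits the amount of repressor (ENSMUSG00000055866, mm9 chromosome 1 from 93312359 to 93356109), had the highest CPM of the 10 genes. The lowest, median and highest libraries were at 350.0, 432 and 566 CPM with celecoxib, 328, 366 and 474 CPM with rofecoxib, and 369, 435 and 523 CPM in controls. In 4 rofecoxib libraries the level was below every control, and 1 rofecoxib library exceeded the control mean. On the log2 scale, celecoxib differed from control by 0.02 ± 0.09 (edgeR adjusted p = 0.933). Rofecoxib differed from control by -0.19 ± 0.09 (edgeR unadjusted p = 0.0400, edgeR adjusted p = 0.164), and celecoxib from rofecoxib by 0.21 ± 0.09 (edgeR adjusted p = 0.0867). Without rofecoxib 2, the rofecoxib library with the most Per2, the drugs differed by 0.25 (edgeR adjusted p = 0.0406), and without celecoxib 2 by 0.24 (edgeR adjusted p = 0.0354).

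Per3, a period gene whose loss leaves the mouse clock largely running (ENSMUSG00000028957, mm9 chromosome 4 from 150377559 to 150418976), fell with celecoxib relative to rofecoxib. Its lowest, median and highest values were 161, 184 and 217 CPM with celecoxib, 183, 216 and 245 CPM with rofecoxib, and 171, 205 and 231 CPM in controls. The drug groups overlapped, but 4 of 8 celecoxib libraries lay below every rofecoxib library and 4 of 8 rofecoxib libraries above every celecoxib library. The log2 fold change for celecoxib against rofecoxib was -0.22 ± 0.07 (edgeR adjusted p = 0.0207), with a 95% interval of -0.35 to -0.08, a difference of 186 ± 19.5 against 216 ± 19.1 CPM. Controls, at 204 ± 16.4 CPM, lay between. Neither drug was called against them, with -0.14 ± 0.07 for celecoxib (edgeR unadjusted p = 0.0455, edgeR adjusted p = 0.275) and 0.08 ± 0.07 for rofecoxib (edgeR adjusted p = 0.439). With any 1 of the 24 libraries left out, Per3 was still called between the drugs.

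The cryptochromes, the main repressors of the ARNTL complex, did not separate the groups. Cry1 (ENSMUSG00000020038, mm9 chromosome 10 from 84594245 to 84648001) averaged 25.7 ± 6.57 CPM with celecoxib, 25.5 ± 3.79 with rofecoxib and 29.0 ± 4.05 in controls. In 3 celecoxib and 3 rofecoxib libraries Cry1 was below every control, but the log2 fold changes of -0.17 ± 0.13 with celecoxib and -0.18 ± 0.13 with rofecoxib were not called (edgeR adjusted p = 0.510 and 0.367). Cry2 (ENSMUSG00000068742, mm9 chromosome 2 from 92243601 to 92274402) averaged 99.0 ± 16.9 CPM with celecoxib, 88.0 ± 13.5 with rofecoxib and 94.3 ± 14.4 in controls, and its largest difference, 0.17 ± 0.11 for celecoxib against rofecoxib, was not called (edgeR adjusted p = 0.271). Cry2 lies across the opposite-strand transcript D930015M05Rik over 23821 bases, a gene with a mean of 21.0 counts a library, against 1548 or more for Cry2.

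Nr1d1, the REV-ERBα gene (ENSMUSG00000020889, mm9 chromosome 11 from 98629044 to 98636849), had the largest difference from control of any clock gene by unadjusted p with celecoxib. Its lowest, median and highest values were 195, 267 and 324 CPM with celecoxib, 169, 227 and 288 CPM with rofecoxib, and 159, 208 and 312 CPM in controls. In 7 of 8 celecoxib libraries it was above the control mean, but control 7, at 312 CPM, lay above all celecoxib libraries but 1. The log2 fold change was 0.33 ± 0.13 for celecoxib against control (edgeR unadjusted p = 0.0163, edgeR adjusted p = 0.184), 0.09 ± 0.13 for rofecoxib against control (edgeR adjusted p = 0.664) and 0.24 ± 0.13 between the drugs (edgeR adjusted p = 0.188). The ends of Nr1d1 and of Thra, a thyroid hormone receptor gene on the opposite strand, overlap by 1479 bases. Thra averaged 219.9 ± 8.01 CPM with celecoxib, 215 ± 21.8 with rofecoxib and 198 ± 14.4 in controls and was not called in any comparison. The sources used here do not say whether counting used strand, so reads from that stretch could not be assigned.

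Nr1d2, the REV-ERBβ gene (ENSMUSG00000021775, mm9 chromosome 14 from 19036366 to 19071843), was the clock gene with the clearest separation of rofecoxib. The lowest, median and highest libraries were at 215, 266 and 328 CPM with celecoxib, 296, 312 and 365 CPM with rofecoxib, and 199.6, 283 and 311 CPM in controls. All 8 rofecoxib libraries lay above the control mean, 4 of them above every control, and 7 of 8 celecoxib libraries lay below every rofecoxib library. The log2 fold change for celecoxib against rofecoxib was -0.26 ± 0.09 (edgeR adjusted p = 0.0297), with a 95% interval of -0.44 to -0.09. Rofecoxib against control gave 0.26 ± 0.09, which was not called (edgeR unadjusted p = 0.00533, edgeR adjusted p = 0.0640; DESeq2 adjusted p = 0.0407). It was called without control 1 (edgeR adjusted p = 0.0455) and without control 4 (edgeR adjusted p = 0.0499). Celecoxib and control did not differ beyond their spread, with a log2 fold change of -0.0025 ± 0.09.

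The call of Nr1d2 was not kept once GC content was corrected for. With a correction of the counts for GC content, Nr1d2 was at -0.15 between the drugs (edgeR adjusted p = 0.136) and at 0.17 for rofecoxib against control (edgeR adjusted p = 0.150), whereas Per3 was at -0.25 between the drugs and still called (edgeR adjusted p = 0.0263). The Nr1d2 transcripts hold 44.0% GC, the lowest share of the 10 genes, and those of Per1 58.9%, the highest. The GC slope of a library, the slope of its log2 CPM relative to the mean library on transcript GC, was 0.84 ± 0.98 for celecoxib, -1.18 ± 1.05 for rofecoxib and 0.34 ± 0.92 for control libraries (mean ± SD, n = 8 each). The slope differed between the drug groups, so drug and GC slope cannot be told apart. Nr1d2 still followed the slope after the correction, as given below. The part of the slope in the difference of Nr1d2 between the drugs was not tested beyond that correction. Between the drugs, the call of Nr1d2 was also lost without celecoxib 7 (edgeR adjusted p = 0.0673), celecoxib 8 (0.0663), rofecoxib 7 (0.0608) or rofecoxib 8 (0.0684).

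Dbp, whose transcription follows the ARNTL complex closely and which marks the clock's output (ENSMUSG00000059824, mm9 chromosome 7 from 52960256 to 52965727), did not separate the groups. Its lowest, median and highest values were 168, 244 and 323 CPM with celecoxib, 213, 230.0 and 341 CPM with rofecoxib, and 181, 253 and 305 CPM in controls. The log2 fold change was -0.07 ± 0.12 with celecoxib (95% interval -0.32 to 0.18, edgeR adjusted p = 0.814) and 0.03 ± 0.12 with rofecoxib (95% interval -0.23 to 0.28, edgeR adjusted p = 0.908), each against control. Dbp overlaps Sphk2, a lipid kinase gene on the opposite strand, by 1093 bases, and Sphk2 was at 35.4 ± 4.83 CPM with celecoxib, 31.7 ± 5.11 with rofecoxib and 37.3 ± 3.23 in controls.

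Around the core loop, 30 further regulators were listed, among them the partners Clock and Arntl2, the ROR receptors, the D-box factors and the kinases and ubiquitin ligases that set the life of PER and CRY proteins. Of the 29 tested, 0 were called with celecoxib against control, beside 1.41% of all genes. With rofecoxib against control 1 was higher and 0 lower, beside 2.43% of all genes called higher and 2.87% called lower. With celecoxib against rofecoxib 0 were higher and 7 lower, beside 11.5% and 11.2% of all genes. Their median log2 fold change was -0.02, 0.06 and -0.09 in these 3 comparisons. Rorb, the ROR gene of nervous tissue, had 0 to 4 counts and was not tested.

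The regulators called lower with celecoxib than with rofecoxib included genes that act on PER and CRY proteins. Btrc, the F-box protein that marks PER for breakdown, averaged 28.0 ± 1.32 CPM with celecoxib, 33.0 ± 0.94 with rofecoxib and 29.2 ± 1.71 in controls. It was lower between the drugs (-0.24 ± 0.04, edgeR adjusted p = 0.00109) and higher with rofecoxib against control (0.18 ± 0.04, edgeR adjusted p = 0.0178). The call against control was lost with GC correction (edgeR adjusted p = 0.0927), with a replicate block and GC correction (0.0992) and with a smooth muscle covariate (0.197). Fbxl21, an F-box protein that acts on CRY, was at -0.71 ± 0.19 between the drugs, at a mean of 0.938 CPM with celecoxib and 1.54 CPM with rofecoxib. Prkaa1, a catalytic subunit of AMP kinase that marks CRY1, was at -0.21 ± 0.06, and Sirt1, a deacetylase that acts on PER2 and ARNTL, at -0.39 ± 0.10. Hlf, the relative of Dbp, averaged 103 ± 9.40 CPM with celecoxib, 126 ± 16.3 with rofecoxib and 121 ± 20.7 in controls, with a log2 fold change of -0.29 ± 0.09 between the drugs (edgeR adjusted p = 0.0272). The call of Hlf was lost without celecoxib 7 (edgeR adjusted p = 0.0528) or rofecoxib 6 (0.0586), and that of Prkaa1 without rofecoxib 8 (edgeR adjusted p = 0.0505). Both calls were also lost with GC correction, with Prkaa1 at -0.04 (edgeR adjusted p = 0.467) and Hlf at -0.22 (0.131).

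Ppargc1a, a coactivator of the ROR receptors, had the largest of these differences. Its lowest, median and highest values were 4.26, 5.32 and 11.6 CPM with celecoxib, 7.52, 11.7 and 20.0 CPM with rofecoxib, and 5.51, 10.8 and 24.4 CPM in controls, at -1.10 ± 0.29 between the drugs (edgeR adjusted p = 0.0119) and -1.04 ± 0.29 for celecoxib against control (edgeR adjusted p = 0.0712). Ppargc1a is also a gene of brown adipocytes, whose 14 tested markers had a median log2 fold change of -0.24 between the drugs. For celecoxib against control their median was -0.72. Of these markers 0 were called in either comparison, beside 22.7% and 1.41% of all genes. At an unadjusted edgeR p under 0.05, 6 were lower with celecoxib against control, beside 17.3% of all genes in either direction. The summed level of the markers ran from 194 to 704 CPM with celecoxib, 370 to 629 CPM with rofecoxib and 298 to 1883 CPM in controls. Control 6 alone was at 1883 CPM, and the other controls ran from 298 to 700.0 CPM. The part of these markers in the result was not tested.

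Of 20 output genes of the clock, 0 were called with celecoxib against control, 1 higher and 2 lower with rofecoxib against control, and 7 higher and 1 lower with celecoxib against rofecoxib. Of all genes, 1.41% were called with celecoxib against control. With rofecoxib against control 2.43% were called higher and 2.87% lower, and between the drugs 11.5% higher and 11.2% lower. The median log2 fold change was 0.02, -0.16 and 0.10 in these comparisons. Por, the electron donor of cytochromes P450, averaged 218 ± 33.4 CPM with celecoxib, 170.0 ± 16.2 with rofecoxib and 216 ± 29.3 in controls, and Tsku, a secreted leucine-rich protein, averaged 18.6 ± 2.55 CPM with celecoxib, 12.5 ± 1.95 with rofecoxib and 18.3 ± 2.82 in controls. Both fell with rofecoxib against control (Por -0.35 ± 0.09, edgeR adjusted p = 0.0291; Tsku -0.56 ± 0.11, edgeR adjusted p = 0.00947). The call of Por against control was lost without rofecoxib 7 (edgeR adjusted p = 0.0654), rofecoxib 8 (0.0727) or control 7 (0.0559), with GC correction (0.126) and with a replicate block and GC correction (0.144). Rbm3, a cold-induced RNA-binding protein, rose with rofecoxib against control (0.26 ± 0.05, edgeR adjusted p = 0.00658) and was lower with celecoxib than with rofecoxib (-0.20 ± 0.05, edgeR adjusted p = 0.00621). With a smooth muscle covariate none of the 3 was called against control (edgeR adjusted p = 0.209 for Por, 0.169 for Tsku and 0.119 for Rbm3).

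Among the outputs higher with celecoxib than with rofecoxib were 3 that glucocorticoids also induce. Fkbp5, a co-chaperone of the glucocorticoid receptor, ran from 148 to 261 CPM with celecoxib, 31.1 to 127 CPM with rofecoxib and 46.9 to 205 CPM in controls, so the drug groups did not overlap. Its log2 fold change between the drugs was 1.18 ± 0.27 (edgeR adjusted p = 0.00579). Tsc22d3, the glucocorticoid-induced leucine zipper, was at 0.44 ± 0.13 (edgeR adjusted p = 0.0239) and Klf15, a Krüppel-like factor of nutrient metabolism, at 0.32 ± 0.11 (edgeR adjusted p = 0.0434). The others were Por at 0.36 ± 0.09, Tsku at 0.58 ± 0.11, Cys1, a gene of the primary cilium, at 0.32 ± 0.10 and Herpud1, a stress protein of the endoplasmic reticulum, at 0.25 ± 0.06. With 1 library left out in turn, Klf15 was called in 10 of 24 fits (edgeR adjusted p 0.0336 to 0.100, the highest without celecoxib 5). Tsc22d3 was not called without celecoxib 8 (edgeR adjusted p = 0.0579), nor Cys1 without celecoxib 4 (0.0581), celecoxib 5 (0.0592), celecoxib 7 (0.0543), celecoxib 8 (0.0645) or rofecoxib 8 (0.0632).

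Many of these calls changed with the GC correction. The GC slope differed between the drug groups, so a drug difference and one of GC content cannot be told apart. Of the 17 clock, regulator and output genes called between the drugs, 9 were called after GC correction, namely Per3, Btrc, Fbxl21, Sirt1, Ppargc1a, Fkbp5, Tsku, Tsc22d3 and Herpud1. The other 8 moved toward 0, among them Hlf at -0.22 (edgeR adjusted p = 0.131) and Por at 0.20 (edgeR adjusted p = 0.110). Markers of adventitial fibroblasts also differed between these groups, with 5 of 15 lower with rofecoxib against control and 6 of 15 higher with celecoxib against rofecoxib, beside 2.87% and 11.5% of all genes. Their summed level ran from 11200.4 to 16103 CPM with celecoxib, 10515 to 12415 CPM with rofecoxib and 11077 to 16567 CPM in controls, and their part in the result was not tested. Of 20 smooth muscle markers, 5 were called higher with celecoxib and 4 with rofecoxib against control, and of 15 macrophage markers 3 were called lower with rofecoxib against control. Beside these stood 0.913% of all genes called higher with celecoxib, 2.43% called higher with rofecoxib and 2.87% called lower with rofecoxib.

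**Figure D3:**
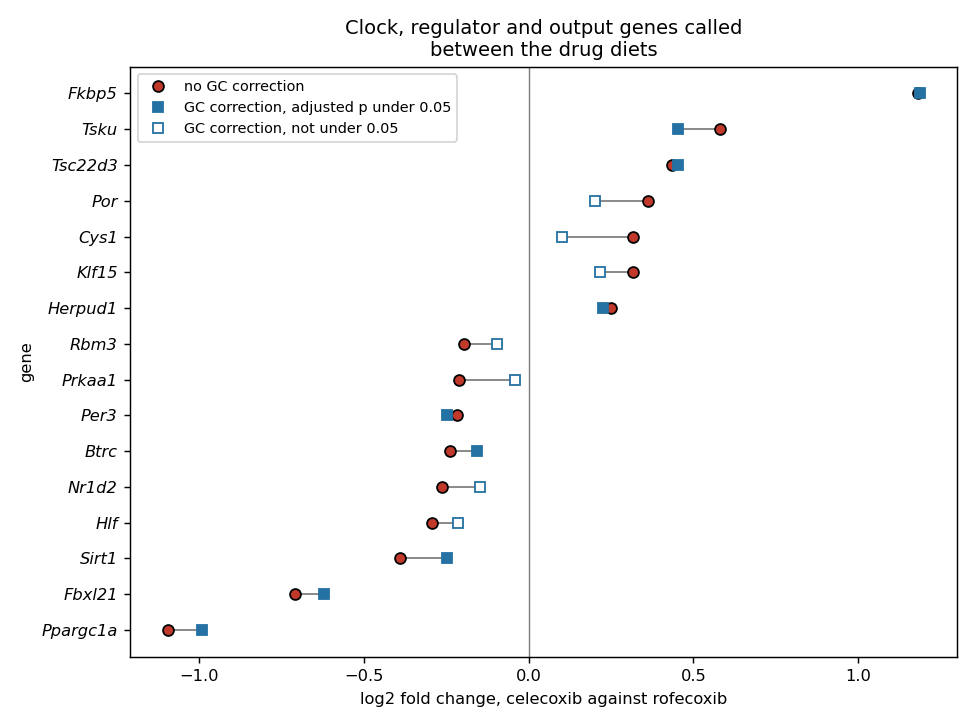
Log2 fold changes, celecoxib against rofecoxib, of 16 of the 17 called clock, regulator and output genes, as circles without and squares with GC correction. Filled squares mark an edgeR adjusted p under 0.05 after the correction; Fkbp5, Per3 and Tsc22d3 barely move, while Prkaa1, Cys1 and Rbm3 come close to 0.

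Genes downstream of the signals that reset peripheral clocks were called between the drugs. Per1 was not called, with a 95% interval of -0.12 to 0.44, and a difference between Per1 and these genes was not tested. Of 23 glucocorticoid-responsive genes, 7 were higher and 0 lower with celecoxib against control, where 0.913% of all genes were called higher and 0.498% lower (median log2 fold change 0.36), with 3 or 4 called without celecoxib 4, celecoxib 5, control 2 or control 3. The count was 4 with a replicate block, 1 with a brown adipocyte covariate and 0 with a smooth muscle covariate. In the same list 0 were called with rofecoxib against control (median 0.04), where 5.3% of all genes were. With celecoxib against rofecoxib 11 were higher and 0 lower (median 0.34), where 11.5% of all genes were called higher and 11.2% lower. In this list 5 were called between the drugs with GC correction and 3 with a replicate block and GC correction. Of all genes, 1325 and 1442 were called under these settings. Like the other lists, it was chosen with earlier results of these data known, so its counts are a description and no test. Fkbp5, Tsc22d3, Klf15, Klf9 and Pdk4 are counted both in this list and among the outputs. Of these, Klf9 at 0.03 (edgeR adjusted p = 0.842) and Pdk4 at -0.12 (0.815) were not called between the drugs. Nr3c1, the glucocorticoid receptor, averaged 134 ± 12.0 CPM with celecoxib, 164 ± 24.2 with rofecoxib and 146 ± 12.1 in controls, at -0.29 ± 0.08 between the drugs (edgeR adjusted p = 0.0105). Of 22 early genes that answer to CREB and serum, 1 was higher and 8 lower with celecoxib against rofecoxib (median -0.26), beside the same shares of all genes, and 1 was higher and 0 lower with celecoxib against control (median -0.23). Ptgs2, the drugs' target and itself induced early, was at 20.9 ± 4.05 CPM with celecoxib, 43.7 ± 7.46 with rofecoxib and 36.6 ± 16.7 in controls, with -1.06 ± 0.23 between the drugs (edgeR adjusted p = 0.00348).

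Some pairs of clock genes varied together from library to library once the group means were removed. Of 45 pairs, 8 correlated over the 24 libraries at an adjusted permutation p under 0.05, 5 with a positive and 3 with a negative Pearson's r. These 8 pairs, 17.8% of the 45, had an absolute r of at least 0.547, as did 7.08% of all pairs of tested genes. The count was 3 without control 6 and 1 without control 6 and rofecoxib 2. The tightest pair was Nr1d1 with Dbp, at r = 0.73 (rho 0.74, permutation p = 0.00012, adjusted p = 0.0054). It was 0.74 in celecoxib, 0.71 in rofecoxib and 0.81 in control libraries, and 0.69 without control 7 and celecoxib 7, the libraries farthest from the median of Nr1d1. Dbp also varied with Per1 (r = 0.61, rho 0.55, permutation p = 0.00107, adjusted p = 0.0120, 0.48 without the 2 farthest libraries) and with Per3 (r = 0.59, rho 0.56, permutation p = 0.00557, adjusted p = 0.0313, 0.49 without the 2 farthest). No other clock gene passed the threshold with Dbp.

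A second set tied Per2 to Cry1 at r = 0.60 (rho 0.57, permutation p = 0.00287, adjusted p = 0.0258), with 0.61, 0.55 and 0.68 in celecoxib, rofecoxib and control libraries and 0.57 without the 2 farthest. Cry1 ran against Nr1d1 (r = -0.55, rho -0.58, permutation p = 0.00536, adjusted p = 0.0313, -0.58 without the 2 farthest). Arntl, which is known to cycle in antiphase to the Per genes, ran against Per1 (r = -0.62, rho -0.49, permutation p = 0.00467, adjusted p = 0.0313) but at -0.38 without control 6 and control 4. Arntl and Dbp were at r = -0.44 (rho -0.36, permutation p = 0.0316, adjusted p = 0.119), and Npas2 passed with no other clock gene, its coefficients lying between -0.22 and 0.21. Cry1 and Cry2 were at r = 0.97 within celecoxib, -0.08 within rofecoxib and 0.13 within control libraries, and that difference was not tested.

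The remaining pairs joined Nr1d2 to Per3 (r = 0.64, rho 0.61, permutation p = 0.00096, adjusted p = 0.0120, 0.56 without the 2 farthest) and, with the opposite sign, to Cry2 (r = -0.65, rho -0.64, permutation p = 0.00093, adjusted p = 0.0120, -0.66 without the 2 farthest). Both Nr1d2 and Cry2 followed the GC slope of the library. Nr1d2 followed it at r = -0.88 (rho -0.92, permutation p = 1e-05, the smallest the shuffles can give, adjusted p = 0.0003), with -0.92, -0.94 and -0.93 in celecoxib, rofecoxib and control libraries and -0.86 without the 2 farthest. Cry2 followed it at r = 0.70 (rho 0.68, permutation p = 0.00045, adjusted p = 0.0090, 0.68 without the 2 farthest), with 0.74, 0.72 and 0.62 in celecoxib, rofecoxib and control libraries. Of all genes tested, 1.16% had a coefficient at or under that of Nr1d2 and 5.25% one at or over that of Cry2. After GC correction 9 pairs passed, 7 positive and 2 negative. The pair of Nr1d2 with Cry2 was no longer among them and Per1 with Nr1d2 was, at r = 0.74. The correction did not remove the relation to the GC slope, which Nr1d2 still followed at r = -0.77 and Cry2 at r = 0.57. Without control 6 and rofecoxib 2, which earlier results of these data had set apart, the pair that passed was Nr1d1 with Dbp at r = 0.69 (permutation test, adjusted p = 0.0333).

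With single libraries left out in turn, Nr1d1 with Dbp and Cry2 with Nr1d2 passed in 24 of 24 repeats. Without control 6, Per1 with Dbp was at r = 0.51 (adjusted permutation p = 0.0874), Per3 with Nr1d2 at 0.54 (0.0874) and Per3 with Dbp at 0.51 (0.215), and none of these passed. Per2 with Cry1 did not pass without celecoxib 2, at r = 0.51 (adjusted permutation p = 0.0776). Per3 with Dbp passed in 17 of 24 repeats (adjusted permutation p 0.0202 to 0.215; lost also without celecoxib 1, 4, 5, 6 or 7 or rofecoxib 6). Cry1 with Nr1d1 passed in 16 (0.0198 to 0.107; lost without celecoxib 1, 3, 4, 6 or 7, rofecoxib 2, control 6 or control 7), and Arntl with Per1 in 20 (0.0157 to 0.298; lost without celecoxib 4, rofecoxib 7, control 4 or control 6).

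**Figure D4:**
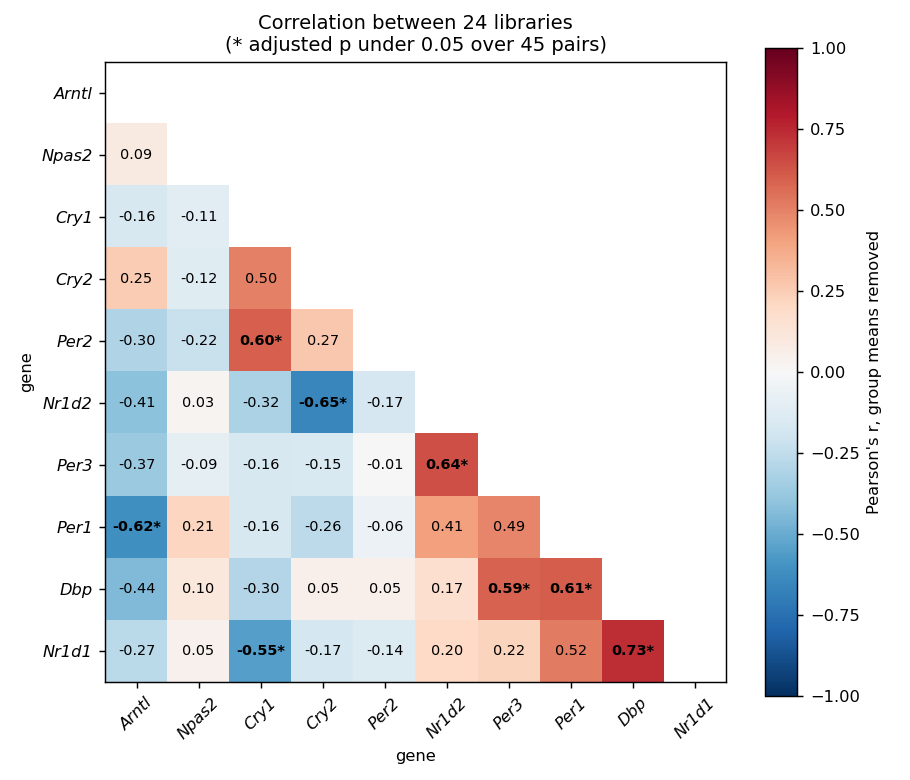
Pearson's r of log2 CPM with group means removed, for each pair of the 10 clock genes over 24 libraries, with colour running from blue at -1 to red at 1 and a star at an adjusted permutation p under 0.05. Dbp with Nr1d1 at 0.73 is the strongest positive cell and Cry2 with Nr1d2 at -0.65 the strongest negative one.

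Between libraries of a group, Per1 varied with the early genes. Its r with the mean log2 CPM of the 22 early genes was 0.80 over 24 libraries (rho 0.79, permutation p = 1e-05, the smallest the shuffles can give, adjusted p = 0.0003 over 60 relations of clock genes with 6 library measures). It was 0.56 in celecoxib, 0.81 in rofecoxib and 0.86 in control libraries, and 0.75 without control 2 and control 8, which lay farthest from the median. Of the 22 early genes, 21 had an r with Per1 above 0 and 11 one of at least 0.5, with a median of 0.495, beside -0.02 for all genes tested. Btg2, an antiproliferative early gene, was at r = 0.85, Fosb at 0.80, Jun at 0.72 and Atf3 at 0.72. These relations were chosen after the data were seen, and all points share the same 24 libraries.

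The genes most like Dbp between libraries included 2 of the listed regulators. Over 24 libraries and 12174 genes compared, the highest coefficients with Dbp were those of Bhlhe41, an E-box repressor also called Dec2 (r = 0.90), Tcap, a sarcomere gene (0.89), Stard3, a cholesterol-binding protein (0.85), and Gm129, listed under its current name Ciart, a repressor of the ARNTL complex (0.84). Bhlhe41 was at 0.92, 0.96 and 0.82 in celecoxib, rofecoxib and control libraries. Tcap and Stard3 are neighbours on the same strand of mm9 chromosome 11, Stard3 from 98219480 to 98242628 and Tcap from 98244923 to 98246469, with 2294 bases between them. The lowest were S100a10 (-0.74), Rasl11a (-0.72) and Slc7a6 (-0.71).

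Arntl had Lag3, a receptor of lymphocytes, as its closest gene (r = 0.91, with 0.95, 0.94 and 0.89 in celecoxib, rofecoxib and control libraries), followed by Ccdc45 (0.76), Mmd (0.76) and Tmem5 (0.73). Lag3 was at 1.37 to 4.09 CPM and, like Arntl, it was read from few counts. The lowest was Wee1, the cell cycle kinase known as a target of the clock's E-boxes, at r = -0.76 (-0.65, -0.76 and -0.81 in celecoxib, rofecoxib and control libraries, -0.66 without the 2 farthest), then 2010109K11Rik and Slc4a1ap, both at -0.74. These coefficients were picked as the extremes of all genes and are a description, with no test.

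**Figure D5:**
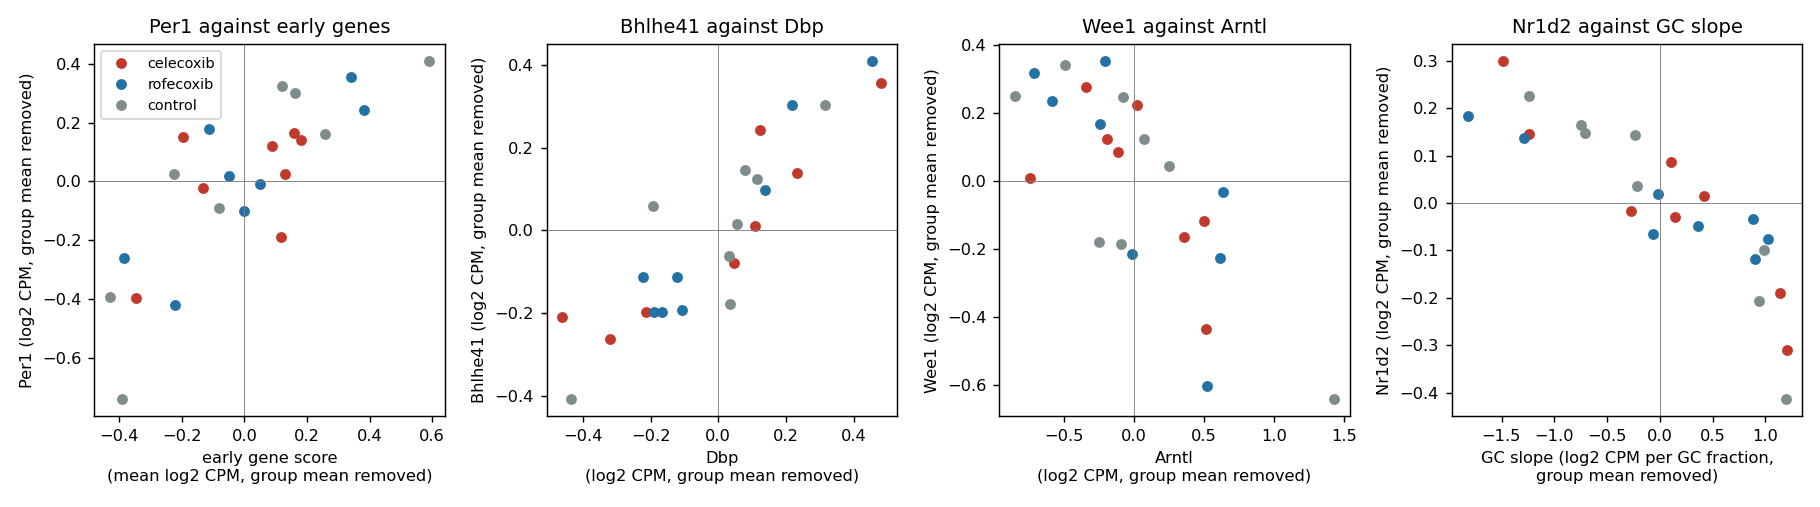
Deviations of single libraries from their group mean, with 1 point a library coloured by group, for Per1 against the early gene score, Bhlhe41 against Dbp, Wee1 against Arntl and Nr1d2 against the GC slope, each gene in log2 CPM. The r values are 0.80, 0.90, -0.76 and -0.88, and control 6 is the lowest point of Per1, Bhlhe41, Wee1 and Nr1d2.

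In control 6, 6 of the 10 clock genes lay outside the range of the other controls, as did 49.3% of all genes tested, so the share of clock genes was near that of the background. Its Arntl, at 3.55 CPM, was above the 0.547 to 2.02 CPM of the other 23 libraries. Its Per1 at 141 CPM, Nr1d1 at 159 CPM and Nr1d2 at 199.6 CPM were the lowest of all 24 libraries, and its Dbp at 181 CPM and Per3 at 171 CPM the lowest of the controls. Its Per2, Cry1, Cry2 and Npas2 lay within the range of the other controls. The same library had 1883 CPM of brown adipocyte markers, against 298 to 700.0 CPM in the other controls, and 11671 CPM of white and general adipocyte markers, against 1947 to 6222 CPM. Its Schwann and nerve markers summed to 814 CPM, against 345 to 469 CPM in the other controls. Its smooth muscle markers summed to 48221 CPM, against 51255 to 64646 CPM in the other controls, and its fibroblast, endothelial and skeletal muscle sums also lay below those of every other control. The part of these markers in the shift was not tested, and without control 6 Arntl with Per1 was at r = -0.41 (permutation test, adjusted p = 0.298).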

How the data were processed

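PolyA RNA of the 24 aortas was sequenced. STAR 2.5.1b, CASAVA 1.8.2 and the mm9 build are named, per the submitters' processing notes. The authors deposited 1 table of counts per gene, as whole numbers. The sources used here do not give the counting tool, annotation, use of strand, or the step that brought library totals within 0.164% of each other. Scaled counts would alter the spread that edgeR assumes. Counts at such totals limit Arntl most.

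The counts were tested with edgeR 4.0.16 (R 4.3.3): filterByExpr, TMM, and a robust quasi-likelihood fit to all 24 libraries (21 residual degrees of freedom) with 3 contrasts and Benjamini-Hochberg adjustment over 14451 genes. An SE was taken as the size of a log2 fold change divided by the root of its F value. On simulated counts for celecoxib against control, 67 of 100 genes changed by 0.5 on the log2 scale and 97 of 100 changed by 1 were called, with 5 false calls among 14390 genes. The simulation gave every gene the same spread, with no outlying library and no GC slope. These counts therefore do not measure recovery or false calls in the real data. DESeq2 1.42.0 was an alternative. Correlations used log2 CPM (prior count 2) less group means and 100000 two-sided permutations within groups. Transcript GC and exon lengths came from GENCODE M21 by Ensembl identifier (97.4% of genes tested), and the GC correction was a loess offset (span 0.5).

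The members and lists were chosen with earlier results of these data known. Named were all members, called regulators and outputs (up to 8 per list and comparison by p), the 4 highest and 3 lowest genes by likeness to Arntl and Dbp among those with mean log2 CPM of at least 1, and Fkbp5, Tsc22d3, Ptgs2 and Nr3c1. Other names were chosen after their values were seen. The values of 1 called regulator are not reported here. Alternatives were other scalings and filters, GC correction, marker scores as covariates, a replicate block and libraries left out. The replicate numbers do not pair the libraries.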

Additional observations from a re-analysis of the deposited data

Results flagged for a closer look

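Among 30 sets of 8 libraries, 1 for each clock gene and group, 1 held a library far from the others: Arntl in control 6, at 3.55 CPM against 0.659 to 1.52 CPM in the other controls. Chance sets apart about 1 in 20 such sets. The values of control 6 in other genes are given above.

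The direct test of celecoxib against rofecoxib called 18 of the genes described, beside 22.7% of all genes tested. Drug, dose and GC slope cannot be told apart in these differences. Among the clock, regulator and output genes named below, Nr1d2, Hlf, Prkaa1, Por, Cys1, Klf15 and Rbm3 were not called with GC correction. On the log2 scale the difference, celecoxib minus rofecoxib, was -0.22 for Per3 and -0.26 for Nr1d2 among the clock genes. Among the regulators it was -0.29 for Hlf, -0.71 for Fbxl21, -0.24 for Btrc, -0.21 for Prkaa1, -0.39 for Sirt1 and -1.10 for Ppargc1a. Among the outputs it was 0.44 for Tsc22d3, 0.36 for Por, 0.58 for Tsku, 0.32 for Cys1, 0.32 for Klf15, 1.18 for Fkbp5, 0.25 for Herpud1 and -0.20 for Rbm3. Ptgs2 was at -1.06 and Nr3c1 at -0.29.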

How the results depend on the processing

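Of the 10 clock genes, 0 were called with celecoxib against control under every alternative run. With rofecoxib against control 1 was called with DESeq2 and 0 to 1 with 1 library left out. Between the drugs 1 was called with GC correction and 1 with a replicate block and GC correction, and 1 to 3 with 1 library left out. Replicate numbers did not pair the libraries (same-number correlations -0.39 to 0.32). The cause of the changes that follow was not tested.

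For celecoxib against control, regulators called were 1 with DESeq2 and 1 with block and GC correction; glucocorticoid-responsive genes 4 with the block, 4 with block and GC, 1 with a brown adipocyte and 0 with a smooth muscle covariate; early genes 2, 3, 0 and 0 under the same settings. For rofecoxib against control, regulators were 0 with GC correction, block and GC, or the smooth muscle covariate and 5 with DESeq2, and outputs 0 with the smooth muscle covariate. Between the drugs, regulators were 4 with GC correction and 12 with DESeq2, outputs 5 with GC correction and 5 with block and GC, and glucocorticoid-responsive genes 5 and 3. With 1 library left out the ranges were 0 to 1, 1 to 4 and 5 to 11 for regulators, 0 to 0, 2 to 4 and 5 to 9 for outputs, 3 to 7, 0 to 1 and 9 to 13 for glucocorticoid-responsive genes, 1 to 2, 0 to 1 and 7 to 11 for early genes, in the order of comparisons above. Clock gene pairs passing were 3 to 9, 10 with the block, and 1 without control 6 and rofecoxib 2.

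All genes called, celecoxib against control, were 204, but 86 without a filter, 307 with GC correction, 366 with block and GC, 25 with the brown adipocyte and 2 with the smooth muscle covariate, 88 with only the 2 groups fitted, 477 with DESeq2, and 42 to 312 with 1 library left out. For rofecoxib against control they were 766, but 294 without a filter, 208 with GC correction, 185 with block and GC, 409 with the brown adipocyte, 399 with the skeletal muscle and 7 with the smooth muscle covariate, 461 with only the 2 groups fitted, 215 without control 6 and rofecoxib 2, 1567 with DESeq2, and 170.0 to 1121 with 1 library left out. Between the drugs they were 3275, but 1325 with GC correction, 1442 with block and GC, and 2147 to 3739 with 1 library left out.

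Of the uncalled values of clock genes, these changed sign, on the log2 scale. Celecoxib against control: Npas2 was at 0.019 with the brown adipocyte, 0.014 with a skeletal muscle and 0.16 with the smooth muscle covariate; Per2 at -0.0053 with library totals, -0.0037 with GC correction, -0.0025 with block and GC, -0.049 with the brown adipocyte and -0.10 with the smooth muscle covariate; Nr1d2 at 0.0020 with the replicate block, 0.021 with GC correction, 0.023 with block and GC and 0.0062 with the skeletal muscle covariate. Rofecoxib against control: with the smooth muscle covariate Arntl was at 0.11, Npas2 at 0.15 and Per1 at -0.011; Npas2 was at 0.0099 with GC correction, and without control 6 and rofecoxib 2 Per1 was at -0.0074 and Dbp at -0.0059. Celecoxib against rofecoxib: with GC correction Npas2 was at -0.029 and Per1 at -0.023, with block and GC Npas2 was at -0.027 and Per1 at -0.031, and Npas2 was at -0.025 without control 6 and rofecoxib 2; Cry1 was at -0.0079 with library totals, -0.0025 with the replicate block and -0.061 with the brown adipocyte covariate. With 1 library left out, celecoxib against control ran from -0.072 to 0.38 for Arntl, -0.0635 to 0.038 for Npas2, -0.041 to 0.061 for Per2 and -0.057 to 0.037 for Nr1d2. Rofecoxib against control ran from -0.15 to 0.022 for Npas2, -0.0076 to 0.14 for Per1, -0.056 to 0.078 for Dbp and -0.18 to 0.0099 for Tsc22d3. Celecoxib against rofecoxib ran from -0.026 to 0.14 for Npas2 and -0.050 to 0.072 for Cry1.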
